A study of Danio rerio with 20 samples.

Results

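The Notch pathway genes described here are 10 of the 32520 Ensembl genes in a count table from the zebrafish retina. They were chosen by name, with earlier results of these data known, as the Notch receptors, Delta ligands and Her targets of the pathway: notch1a, notch2, notch3, dla, dlb, dlc, dld, her4.1, her6 and her9. All 10 were among the 13838 genes that passed the filter on low counts. One identity needed a correction. The gene named notch1b in the choice has the identifier ENSDARG00000043130, which the gene name table calls notch2 and which lies on chromosome 8, where RefSeq places notch2. It is called notch2 here. The table gives only human-style symbols for 5 members: NOTCH1 for notch1a, DLL1 for both dla and dld, HES1 for her6 and HES4 for her9. These were identified by chromosome, and notch3 appears as NOTCH3.

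RNA was sequenced from 4 populations of 500 sorted cells each, with 5 libraries per population, at 42 hours post fertilization (hpf). All fish carried 3 fluorescent reporter transgenes: the red Tg(ath5:gap-RFP), the cyan Tg(crx:gap-CFP), and the yellow one driven through Gal4, Tg(ptf1a:gal4,UAS:gap-YFP). Photoreceptors (PR) were positive for the ath5 and crx reporters and negative for ptf1a. Retinal ganglion cells (RGC) were positive for ath5 alone. Amacrine and horizontal cells (AC/HC) were positive for ath5 and ptf1a and negative for crx. Progenitors were negative for all 3 and therefore defined by the lack of a reporter. Embryos were kept at 28 °C to 24 hpf, at 21 °C to 30 hpf and at 28 °C to 42 hpf, in every group. A replicate came from 25 pooled retinas, so p-values measure the spread between pools and not between single fish. Fewer cells of a type in a sorted population and less RNA per cell cannot be told apart in these bulk libraries.

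Notch receptors are membrane proteins that are cut when a Delta or Jagged ligand on a neighbouring cell binds them. The freed intracellular part enters the nucleus, joins the Rbpj complex and turns on genes of the Her and Hes families, whose products are repressors of proneural genes. In the vertebrate retina, cells that become neurons carry Delta ligands, and Notch signalling in their neighbours keeps those cells dividing or undetermined.

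The libraries held 21.2 to 30.8 M counts (M stands for 1e+06) and 7031 to 13636 genes with at least 10 counts, the fewest in AC/HC replicate 1 (7031 genes) and then AC/HC replicate 3 (8822 genes). Of the photoreceptor and the AC/HC markers, 7 of 9 and 10 of 10 were highest in the group of that name. These include crx and ptf1a, whose reporters set the gates. The ptf1a gene was close in 2 groups, at 183 CPM in RGC and 200 CPM in AC/HC. Of 9 ganglion cell markers, 0 were highest in the libraries labelled RGC and all were highest on average in AC/HC. Their summed level was 1288 to 3494 CPM in RGC libraries and 2691 to 5446 CPM in AC/HC libraries, so RGC and AC/HC below name sort gates. CPM are counts per 1e+06 of the library total after TMM scaling. Among 12 progenitor markers, 6 were highest in progenitors, among them rx1. Others of the 6 were close to another group, with sox2 at 242 CPM in AC/HC and 245 CPM in progenitors, and pcna at 2928 CPM in photoreceptors and 3053 CPM in progenitors. The fabp7a and ccnd1 genes were called higher in photoreceptors than in progenitors and pax6a higher in AC/HC. The 12 markers summed to 29289 to 52649 CPM in photoreceptor libraries and 21598 to 23645 CPM in progenitor libraries, so progenitors too names the sort gate. The proliferation marker mki67 was at 435 CPM in photoreceptors, 451 CPM in RGC, 314 CPM in AC/HC and 541 CPM in progenitors. Of the first 3, only AC/HC was called lower than progenitors. Neuron groups and neuron libraries below therefore name the 3 reporter-positive gates and do not state that their cells had stopped dividing. Progenitor libraries also held 168 to 276 CPM of 11 periocular mesenchyme markers, against at most 5.51 CPM in any neuron library. Blood and macrophage markers reached 3505 CPM in progenitor libraries and 2299 CPM in 1 AC/HC library, replicate 1. Pigment epithelium markers summed to 0 to 396 CPM in progenitor libraries and up to 69.4 CPM in RGC libraries. The part of such cells in the differences from progenitors below, her9 among them, was not tested.

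Progenitors had the highest mean of 9 of the 10 genes. The exception, dlb, was close in 2 groups, at 220 CPM in RGC and 213 CPM in progenitors. The share of all genes with their highest mean in progenitors was not counted. A gene was called changed when the adjusted p was under 0.05 in edgeR's quasi-likelihood test, with Benjamini-Hochberg adjustment over all genes tested. In AC/HC against progenitors, 6 of the 10 were called, all lower (notch1a, notch2, dlb, dld, her4.1 and her6), beside 11.1% of all genes called in either direction and 5.51% called lower. In photoreceptors against progenitors, 3 were called, all lower (notch1a, dlb and dlc), beside 5.19% of all genes in either direction and 2.05% lower. In RGC against progenitors, 1 was called, notch2, which was lower, beside 2.88% in either direction and 0.889% lower. The median log2 fold change over the 10 was -2.33 in photoreceptors, -1.07 in RGC and -1.78 in AC/HC, each against the same progenitor libraries, while the medians over all genes were 0.02, 0.03 and 0.

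Separation of the libraries gave higher counts than the test. All 5 photoreceptor libraries lay below all 5 progenitor libraries for 7 of the genes, beside 4.49% of all genes. The same held for 5 genes in RGC, beside 4.05%, and for 7 genes in AC/HC, beside 5.4%. For notch2, dla and her9, every library of all 3 neuron groups lay below every progenitor library. The share of all genes for which this held in all 3 groups at once was not counted.

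**Figure D1:**
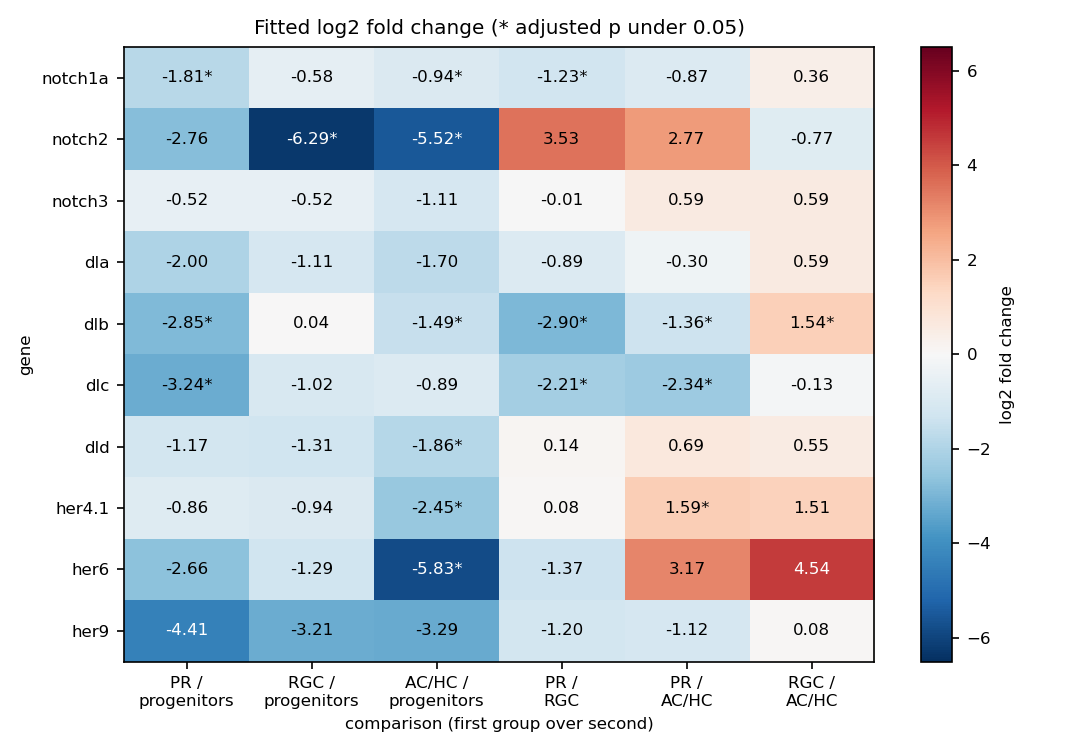
Fitted log2 fold change of each gene (rows) in each of the 6 comparisons (columns, the first group over the second), with blue for lower and red for higher in the first group and an asterisk where the adjusted p of edgeR's quasi-likelihood test was under 0.05. The first 3 columns are against progenitors and hold a single value above 0, dlb in RGC (0.04).

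The 3 receptors differed in which groups were called. Notch1a, the ortholog of mammalian NOTCH1 (ENSDARG00000103554, GRCz11 chromosome 21, 4766244 to 4849056, minus strand), measured 62.0, 64.6, 43.9, 53.6 and 70.3 CPM in photoreceptor replicates 1 to 5. RGC libraries had 108, 140, 147, 149 and 148 CPM, AC/HC libraries 190, 119, 63.1, 60.1 and 106 CPM, and progenitor libraries 246, 140, 107, 286 and 255 CPM. Every photoreceptor library was below every RGC and every progenitor library, while AC/HC and progenitors overlapped.

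Photoreceptors had 3.51-fold less notch1a than progenitors (log2 fold change -1.81, SE 0.31, adjusted p = 0.000832, edgeR), and that call held under all 29 alternative settings. Against RGC, photoreceptors were also lower (-1.23, SE 0.30, adjusted p = 0.0318). The call against RGC ended when any 1 of 7 libraries was left out: photoreceptor replicate 2 (adjusted p = 0.0592), 3 (0.102) or 4 (0.0817), or RGC replicate 2 (0.0590), 3 (0.0639), 4 (0.0607) or 5 (0.0593), and with limma voom (0.0564). In AC/HC against progenitors, notch1a was lower by a log2 fold change of -0.94 (SE 0.30, adjusted p = 0.0468), and this call ended without AC/HC replicate 2 (adjusted p = 0.0544), 3 (0.106), 4 (0.0847) or 5 (0.0563), or progenitor replicate 1 (0.0943), 4 (0.119) or 5 (0.0821). It also ended with no filter on low counts (adjusted p = 0.0614), with the library number range as a term (0.0523) and in a fit of only these 2 groups (0.182). The labelled library numbers fall into a lower and a higher range. Within the lower range the mean log2 difference of AC/HC over progenitors was 0.03 (1 against 2 libraries), whereas in the higher range it was -1.24 (4 against 3 libraries). The 1 AC/HC library of the lower range was replicate 1, which had the fewest genes with at least 10 counts (7031). Photoreceptors and AC/HC did not differ past the threshold (-0.87, adjusted p = 0.0751), and did without AC/HC replicate 3 (adjusted p = 0.0463) or 4 (0.0466).

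Notch2 (ENSDARG00000043130, chromosome 8, 19548985 to 19619792, plus strand) was scarce in all neuron libraries. Photoreceptors had 0.0996, 0.133, 4.22, 1.71 and 3.25 CPM, RGC libraries 0.0398 to 0.221 CPM and AC/HC libraries 0.198 to 0.402 CPM. Progenitor libraries had 5.60, 22.2, 7.37, 18.4 and 10.2 CPM, all above every neuron library. The neuron values rest on few reads, with 1 to 6 counts per RGC library and 4 to 10 per AC/HC library, against 135 to 714 in progenitors.

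RGC were lower than progenitors by a log2 fold change of -6.29 (SE 1.18, adjusted p = 0.00354, edgeR) and AC/HC by -5.52 (SE 1.14, adjusted p = 0.00318), and both calls held under all 29 alternatives. In photoreceptors the 3 libraries of the higher library number range stood above the 2 of the lower range. The photoreceptor difference from progenitors of -2.76 (SE 0.997) did not pass (adjusted p = 0.125), but did with DESeq2 (-2.73, adjusted p = 0.00961) and limma voom (-3.77, adjusted p = 0.00823). Photoreceptors lay above RGC (3.53, adjusted p = 0.0906) and AC/HC (2.77, adjusted p = 0.0926) without passing, and passed in both without photoreceptor replicate 1 (adjusted p = 0.0367 and 0.0492). With all libraries DESeq2 called photoreceptors over RGC (3.64, adjusted p = 0.00111) and over AC/HC (2.86, adjusted p = 0.00728). Within the lower range the mean difference in log2(CPM + 1) was -0.10 over RGC (2 against 2 libraries) and -0.26 over AC/HC (2 against 1). In the higher range it was 1.79 (3 against 3) and 1.64 (3 against 4). At levels this low the added 1 shrinks these differences, so they are not on the scale of the fitted values. Markers of periocular mesenchyme moved with notch2 between neurons and progenitors. All 11 were highest in progenitors, their sum was 0.234 to 2.36 CPM in photoreceptors, 0.120 to 5.51 CPM in RGC, 0.241 to 2.39 CPM in AC/HC and 168 to 276 CPM in progenitors, and twist1a and prrx1b were at 0 in every neuron library. Within the groups they ran together in some libraries and not in others. Progenitor replicate 2 had the highest of both, with 276 CPM of the markers and 22.2 CPM of notch2. Progenitor replicate 4 had the lowest sum (168 CPM) with 18.4 CPM of notch2, progenitor replicate 1 had 261 CPM with the lowest notch2 (5.60 CPM), and photoreceptor replicate 3 had 1.04 CPM with 4.22 CPM of notch2. Endothelial markers (5 found) summed to at most 3.44 CPM in neuron libraries and to 3.07 to 24.2 CPM in progenitors. The part of these cells in the notch2 difference was not tested.

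Notch3 (ENSDARG00000052139, chromosome 3, 53526025 to 53559581, minus strand) was measured at 143, 96.3, 142, 105 and 210 CPM in photoreceptors and at 128, 175, 106, 120 and 170 CPM in RGC. AC/HC libraries had 206, 52.2, 23.1, 89.8 and 91.9 CPM, and progenitor libraries 255, 158, 106, 196 and 285 CPM. All 4 groups overlapped, and AC/HC replicate 1 stood above the other 4 AC/HC libraries.

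None of the 6 comparisons of notch3 was called by edgeR, with 1 of 6 at an unadjusted p under 0.05. That was AC/HC against progenitors (-1.11, SE 0.40, adjusted p = 0.0795), which DESeq2 (-1.16, adjusted p = 0.0271) and limma voom (-1.37, adjusted p = 0.0206) did call, and edgeR too without AC/HC replicate 1 (-1.64, adjusted p = 0.00550) or progenitor replicate 3 (-1.31, adjusted p = 0.0490). EdgeR also called it with library totals in place of TMM scaling (-1.34, adjusted p = 0.0248), and the TMM factor of AC/HC replicate 1 was 0.68. Within the lower library number range the mean log2 difference of AC/HC over progenitors was 0.04 (AC/HC replicate 1 against 2 libraries), and in the higher range -1.67 (4 against 3). The 7 markers of mural cells, which are known for strong Notch3, summed to at most 1.04 CPM in neuron libraries and at most 6.76 CPM in progenitors. The part of such cells in the notch3 values was not tested. Per kb of summed exon length, notch1a lay below notch3 in all 5 photoreceptor libraries (log2 difference -1.20 to -0.08). It lay above notch3 in all RGC libraries (0.17 to 0.96) and all progenitor libraries (0.32 to 1.03), and AC/HC ran from -0.09 to 1.94.

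**Figure D2:**
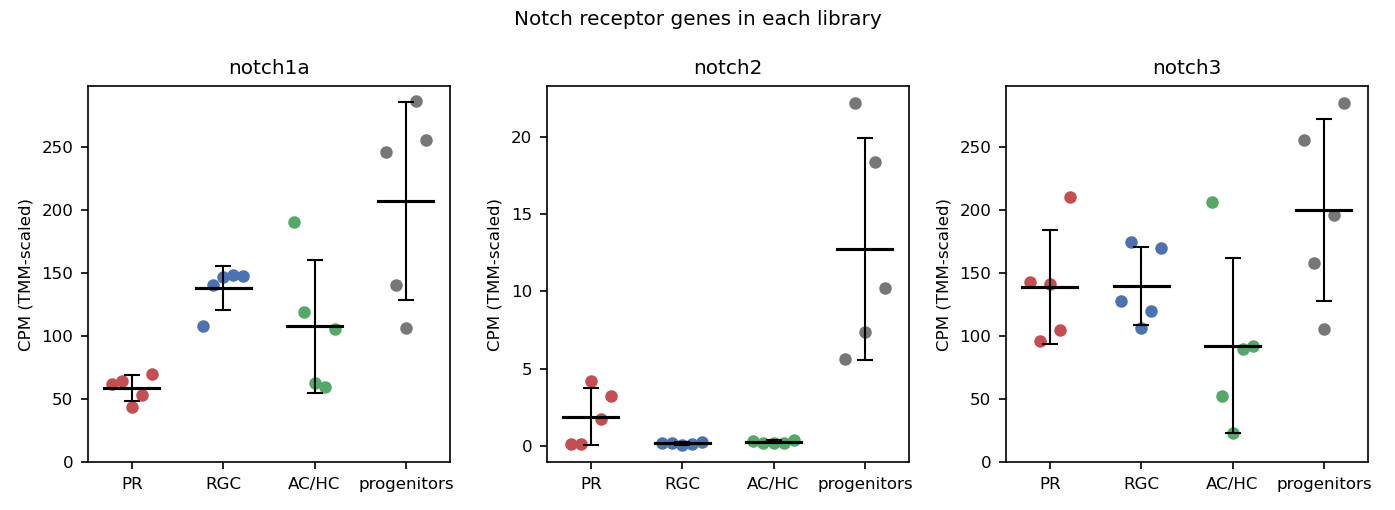
Level of the 3 receptor genes in CPM (y axis) in each library (points) of the 4 sorted groups (x axis), with the group mean as a bar and 1 SD as whiskers (n = 5). Photoreceptors sit below RGC and progenitors for notch1a, notch2 is near 0 in RGC and AC/HC, and the groups overlap for notch3.

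Notch1b, the second zebrafish copy of NOTCH1, was added after its values were seen, since its name stood in the choice of genes. The row on chromosome 5 (ENSDARG00000052094) had 4.15 ± 2.79 CPM in photoreceptors, 5.76 ± 5.00 CPM in RGC, 2.72 ± 4.82 CPM in AC/HC and 10.4 ± 6.17 CPM in progenitors (SD, n = 5 each). All groups overlapped, and against progenitors the adjusted p-values of edgeR's test were 0.743, 0.926 and 0.368.

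By its mean, summed Delta RNA was lowest in photoreceptors and highest in progenitors. Summed per kb of exon length, the 4 Delta genes reached 37.5 ± 12.0 CPM per kb in photoreceptors, 134 ± 16.4 in RGC, 79.0 ± 23.9 in AC/HC and 202 ± 18.8 in progenitors (SD, n = 5 each). The ranges were 28.2 to 58.5 in photoreceptors, 109 to 152 in RGC, 41.9 to 103 in AC/HC and 180 to 230 in progenitors. Only photoreceptors and AC/HC overlapped in this sum.

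Dlb (ENSDARG00000004232, chromosome 5, 36693859 to 36701760, plus strand), a Delta ligand with no separate mammalian ortholog of that name, had 40.7, 24.7, 24.9, 31.1 and 26.2 CPM in photoreceptors. RGC libraries had 251, 217, 273, 210 and 149 CPM, AC/HC libraries 105, 38.5, 73.4, 118 and 44.0 CPM and progenitor libraries 234, 236, 219, 176 and 202 CPM. RGC (149 to 273 CPM) and progenitors (176 to 236 CPM) overlapped, and both lay above every photoreceptor and AC/HC library.

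Photoreceptors fell 7.23-fold below progenitors for dlb (log2 fold change -2.85, SE 0.29, adjusted p = 2.3e-06, edgeR) and 7.45-fold below RGC (-2.90, SE 0.29, adjusted p = 6.9e-06). AC/HC were lower than progenitors (-1.49, SE 0.27, adjusted p = 0.00123), and RGC were higher than AC/HC (1.54, SE 0.27, adjusted p = 0.00646). These 4 calls held under all 29 alternatives. Photoreceptors were also lower than AC/HC (-1.36, SE 0.27, adjusted p = 0.00352), although the 2 groups overlapped, and limma voom (adjusted p = 0.0584) and a fit of only these 2 groups (adjusted p = 0.0776) did not call it. RGC over progenitors gave 0.04 (SE 0.27, adjusted p = 0.995), a difference that was not detectable here.

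Dlc (ENSDARG00000002336, chromosome 15, 20463448 to 20468302, minus strand), a ligand known from somite formation, had 45.4, 21.8, 16.9, 9.11 and 24.9 CPM in photoreceptors. It had 68.6, 155, 98.4, 104 and 121 CPM in RGC, 147, 187, 158, 61.0 and 44.5 CPM in AC/HC, and 258, 192, 232, 179 and 249 CPM in progenitors. Photoreceptors had the lowest mean and did not overlap RGC or progenitors, and their replicate 1 just passed the lowest AC/HC library.

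For dlc, photoreceptors were 9.42-fold below progenitors (-3.24, SE 0.42, adjusted p = 3.8e-05, edgeR), 4.63-fold below RGC (-2.21, SE 0.40, adjusted p = 0.00321) and 5.07-fold below AC/HC (-2.34, SE 0.40, adjusted p = 0.000763). All 3 calls held under all 29 alternatives. RGC lay below progenitors in every library without passing (-1.02, SE 0.38, adjusted p = 0.186). Limma voom (-1.05, adjusted p = 0.0328) and a fit of only these 2 groups (-1.03, adjusted p = 0.0126) called it. AC/HC over progenitors gave -0.89 (SE 0.38, adjusted p = 0.145), which limma voom called (-1.09, adjusted p = 0.0152).

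Dla (ENSDARG00000010791, chromosome 1, 54013457 to 54026352, plus strand) is one of the neurogenic Delta genes of the zebrafish. It had 93.6, 66.7, 63.2, 59.9 and 51.4 CPM in photoreceptors and 139, 147, 110, 133 and 90.9 CPM in RGC. AC/HC libraries had 24.6, 178, 0.939, 165 and 43.7 CPM, against 281, 316, 247, 299 and 193 CPM in progenitors. Every neuron library lay below every progenitor library, and the AC/HC libraries split widely, replicate 3 holding 19 counts and replicate 2 5041.

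Despite that separation edgeR called none of the 6 dla comparisons, with 2 at an unadjusted p under 0.05, and DESeq2 and limma voom called 2 each. Photoreceptors over progenitors gave -2.0 (SE 0.67, adjusted p = 0.0903) and AC/HC over progenitors -1.70 (SE 0.66, adjusted p = 0.102). Without AC/HC replicate 3 both were called, photoreceptors at -2.0 (adjusted p = 0.00380) and AC/HC at -1.38 (adjusted p = 0.0437). The fit shares 1 estimate of the spread per gene over all 4 groups. RGC over progenitors gave -1.11 (adjusted p = 0.544). Fits of only the 2 groups compared called dla lower than in progenitors in photoreceptors (-2.02, adjusted p = 5.73e-05) and in RGC (-1.11, adjusted p = 0.00321). Such a fit also called dla lower in photoreceptors than in RGC (-0.89, adjusted p = 0.0192). Dla shares 339 exon bases with a gene on the other strand, si:ch211-133l11.11, which had at most 20 counts in any library.

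Dld (ENSDARG00000020219, chromosome 13, 6075572 to 6081803, minus strand), a ligand that also acts in somite formation, had the lowest progenitor level of the 4. Photoreceptors had 45.1, 17.9, 22.7, 10.9 and 31.6 CPM, RGC 24.3, 31.2, 16.5, 16 and 28.4 CPM, AC/HC 1.77, 7.43, 21.7, 27.0 and 21.7 CPM, and progenitors 84.8, 43.7, 61.7, 39.8 and 59.0 CPM. RGC and AC/HC did not overlap progenitors, and 1 photoreceptor library did.

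AC/HC were lower than progenitors for dld (-1.86, SE 0.55, adjusted p = 0.0332, edgeR). The call ended without AC/HC replicate 2 (adjusted p = 0.0701) or progenitor replicate 1 (0.0739), 3 (0.0580) or 5 (0.0544), with the log2 fold change between -2.15 and -1.57 over the leave-one-out fits. It also ended with no filter on low counts (adjusted p = 0.0589) and in a fit of only these 2 groups (0.138). Photoreceptors (-1.17, adjusted p = 0.274) and RGC (-1.31, adjusted p = 0.241) against progenitors did not pass. Limma voom called the former (-1.37, adjusted p = 0.0462), and a fit of only RGC and progenitors called the latter (-1.32, adjusted p = 0.0177).

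**Figure D3:**
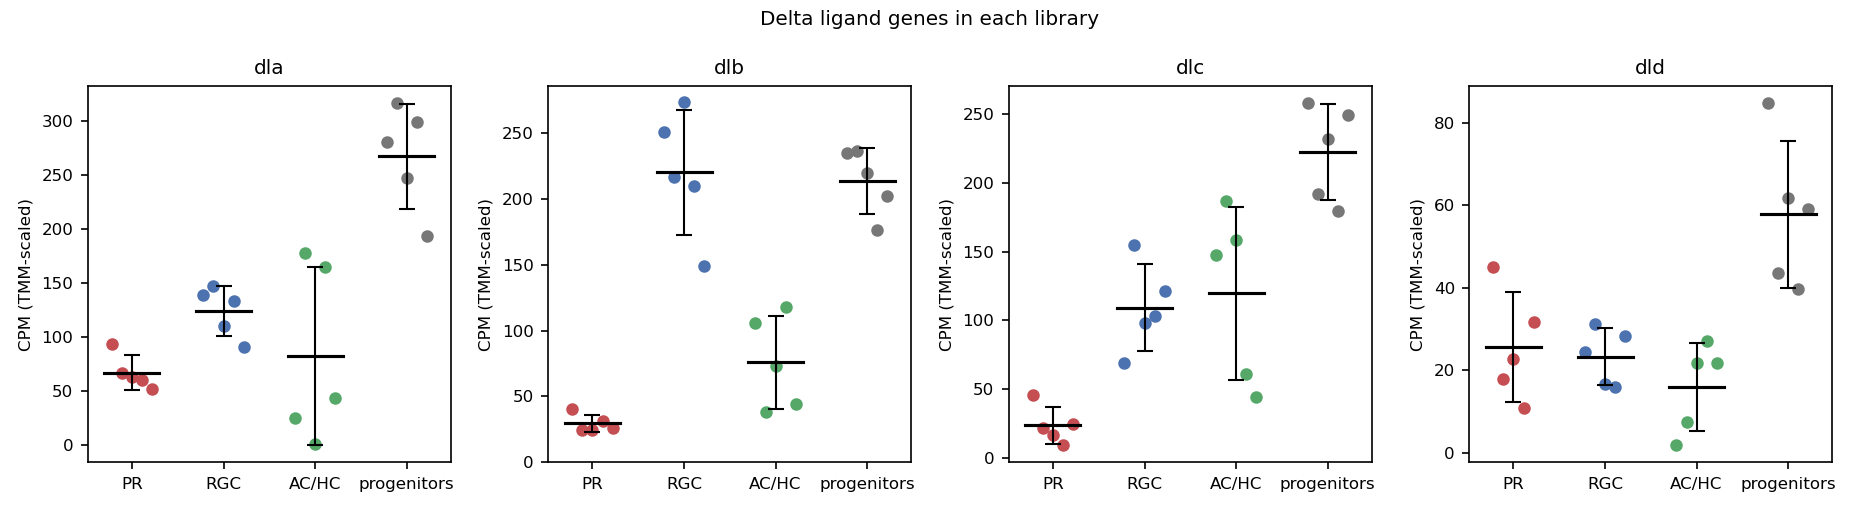
Level of the 4 Delta genes in CPM (y axis) in each library (points) of the 4 sorted groups (x axis), with the group mean as a bar and 1 SD as whiskers (n = 5). RGC libraries overlap progenitors for dlb and lie below them for the other 3 genes, and photoreceptors are low for dlb and dlc.

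The share of each ligand in the summed Delta level per kb differed between the groups as a description, with no test. Dlb made up 52.9 ± 7.82% of the sum in RGC, against 26.2 ± 5.37% in photoreceptors, 32.0 ± 11.9% in AC/HC and 34.0 ± 1.93% in progenitors (SD, n = 5 each), and every RGC library (44.3% or more) was above every other library (42.6% or less). Dld made up 19.7 ± 5.95% in photoreceptors and 5.30 ± 1.80% in RGC, with 7.09 ± 5.93% in AC/HC and 8.46 ± 1.98% in progenitors. The dlc share was highest in AC/HC at 41.0 ± 17.2%, running from 17.2% to 58.7%, against 30.0 ± 3.98% in progenitors. The dla, dlb and dlc shares had their largest SD in AC/HC, where the dla share was 19.9 ± 16.3%, against 27.5 ± 5.43% in progenitors.

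**Figure D4:**
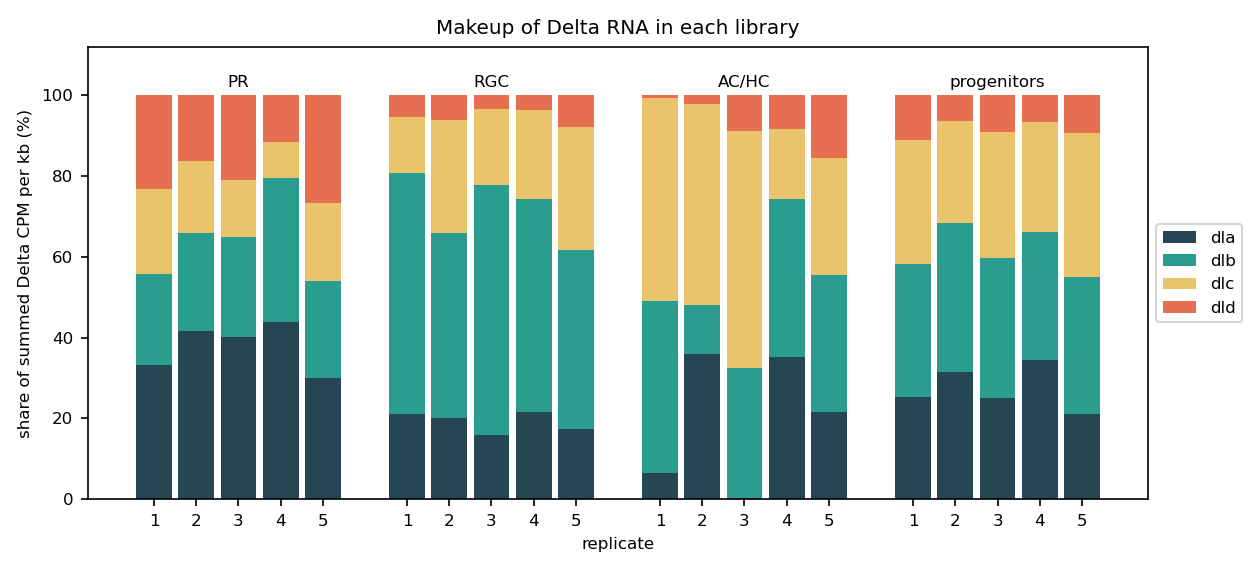
Share of dla, dlb, dlc and dld (colours) in the summed Delta CPM per kb of exon length (y axis, percent) in each library (x axis, replicates 1 to 5 within each group). Dlb fills 44.3% to 61.8% of each RGC bar, and the dla and dlc parts vary from library to library in AC/HC.

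Among the Her genes chosen (her4.1, her6 and her9), her4.1 was the most abundant. Per kb it had the highest mean of all 10 genes in photoreceptors (93.3 ± 47.9 CPM per kb), RGC (88.6 ± 54.0) and progenitors (170 ± 34.7), and in AC/HC (31.1 ± 17.5) it stood next to dlc (32.7 ± 17.2; SD, n = 5 each). Her4 genes are zebrafish relatives of mammalian HES5 and are widely used as a readout of Notch activity.

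Her4.1 (ENSDARG00000056732, chromosome 23, 21452557 to 21453614, minus strand) had 119, 153, 78.0, 36.6 and 62.8 CPM in photoreceptors and 59.9, 177, 54.4, 56.0 and 79.7 CPM in RGC. AC/HC libraries had 33.1, 35.4, 22.4, 6.60 and 52.2 CPM, against 191, 188, 140, 116 and 182 CPM in progenitors. AC/HC lay below all RGC and all progenitor libraries, while photoreceptor replicates 1 and 2 and RGC replicate 2 lay within the progenitor range.

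AC/HC had 5.46-fold less her4.1 than progenitors (-2.45, SE 0.47, adjusted p = 0.0017, edgeR), a call that held under all 29 alternatives. Photoreceptors were higher than AC/HC (1.59, SE 0.45, adjusted p = 0.0342). That call ended without photoreceptor replicate 1 (adjusted p = 0.0629), 2 (0.0974) or 3 (0.0536), or AC/HC replicate 2 (0.0529), 3 (0.0743) or 4 (0.0533), with limma voom (0.0783), with the library number range as a term (0.0568) and in a fit of only these 2 groups (0.133). RGC lay above AC/HC in every library without passing (1.51, SE 0.45, adjusted p = 0.122), though DESeq2 called it (1.52, adjusted p = 0.0250). Photoreceptors (-0.86, adjusted p = 0.372) and RGC (-0.94, adjusted p = 0.362) did not pass against progenitors.

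Her4.1 lies in a row of 5 closely related copies, her4.1 to her4.5, between 21452557 and 21471022 of chromosome 23. Reads that map to several copies were not counted, so the split between copies is uncertain. Their sum was 347 ± 147 CPM in photoreceptors, 324 ± 185 in RGC, 89.0 ± 43.4 in AC/HC and 521 ± 111 in progenitors (SD, n = 5 each), and no AC/HC library (41.9 to 148 CPM) reached a progenitor library (439 to 716 CPM). The other 4 copies were each called lower in AC/HC than in progenitors, with log2 fold changes of -2.65 for her4.2 (SE 0.62, adjusted p = 0.00869), -2.08 for her4.3 (SE 0.52, adjusted p = 0.0127), -2.42 for her4.4 (SE 0.39, adjusted p = 0.000353) and -2.80 for her4.5 (SE 0.69, adjusted p = 0.0117). Pearson correlations of log2 levels between the 5 copies ran from 0.752 to 0.974 over the 20 libraries, and the copies share libraries, groups and possibly reads.

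Her6 (ENSDARG00000006514, chromosome 6, 36551083 to 36552844, minus strand), a relative of mammalian HES1, had 7.32, 1.54, 5.34, 2.81 and 2.88 CPM in photoreceptors and 8.69, 21.7, 3.19, 3.76 and 14.0 CPM in RGC. AC/HC replicates 1, 2 and 3 had 0 counts, replicate 4 had 2 counts (0.0863 CPM) and replicate 5 had 52 counts (2.09 CPM). Progenitor libraries had 27.3, 29.2, 30.6, 23.5 and 15.5 CPM. A count of 0 allows up to 3 counts, which is 0.106 to 0.148 CPM in the AC/HC libraries, as counting error only.

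AC/HC were lower than progenitors for her6 (-5.83, SE 1.38, adjusted p = 0.00926, edgeR), and without AC/HC replicate 5 the fitted log2 fold change was -9.92. The call ended in a fit of only these 2 groups (-5.82, adjusted p = 0.0842) and held under the other 28 alternatives. All AC/HC libraries lay below all RGC libraries (4.54, SE 1.30, adjusted p = 0.112), which passed without AC/HC replicate 5 (8.62, adjusted p = 0.000951). So did photoreceptors over AC/HC, at 7.25 (adjusted p = 0.000523) without that library, against 3.17 (adjusted p = 0.115) with it. Without AC/HC replicate 5 the AC/HC libraries held at most 2 counts each. The size of each fold fitted without it (-9.92, 8.62 and 7.25) is therefore uncertain. With all libraries DESeq2 (4.53, adjusted p = 0.000851) and limma voom (6.79, adjusted p = 0.000878) called RGC over AC/HC. They also called photoreceptors over AC/HC (3.21, adjusted p = 0.0160, and 5.50, adjusted p = 0.00234). Photoreceptors lay below progenitors in every library without passing (-2.66, SE 1.19, adjusted p = 0.256). Limma voom (-2.87, adjusted p = 0.0322) and a fit of only these 2 groups (-2.69, adjusted p = 0.00612) called it.

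Her9 (ENSDARG00000056438, chromosome 23, 23399520 to 23401305, minus strand), a relative of mammalian HES4, had 0, 4.2, 3.47, 2.94 and 6.25 CPM in photoreceptors. RGC libraries were close to each other at 7.03, 8.03, 7.97, 8.07 and 7.66 CPM. AC/HC had 0 counts in replicates 1, 2 and 3, 4.49 CPM in replicate 4 and 32.1 CPM in replicate 5, against 38.2, 72.6, 125, 58.8 and 65.2 CPM in progenitors. Every neuron library lay below every progenitor library, and AC/HC replicate 5 was close to the lowest progenitor library.

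EdgeR called none of the 6 her9 comparisons, with 3 at an unadjusted p under 0.05, while DESeq2 called 1 and limma voom 2. Against progenitors the log2 fold changes were -4.41 in photoreceptors (SE 1.53, adjusted p = 0.105), -3.21 in RGC (SE 1.44, adjusted p = 0.310) and -3.29 in AC/HC (SE 1.45, adjusted p = 0.156). Without AC/HC replicate 5 the AC/HC value was -6.03 (adjusted p = 0.0202), and without AC/HC replicate 1 the photoreceptor value was -4.41 (adjusted p = 0.0448). Fits of only the groups compared called her9 lower than in progenitors in RGC (-3.22, adjusted p = 0.000196) and in photoreceptors (-4.43, adjusted p = 0.00431). AC/HC replicates 4 and 5, with her6 and her9 above 0, held 10860 and 12004 genes with at least 10 counts, while replicates 1, 2 and 3, at 0 for both, held 7031, 10721 and 8822. The part of this difference in the her6 and her9 values was not tested.

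**Figure D5:**
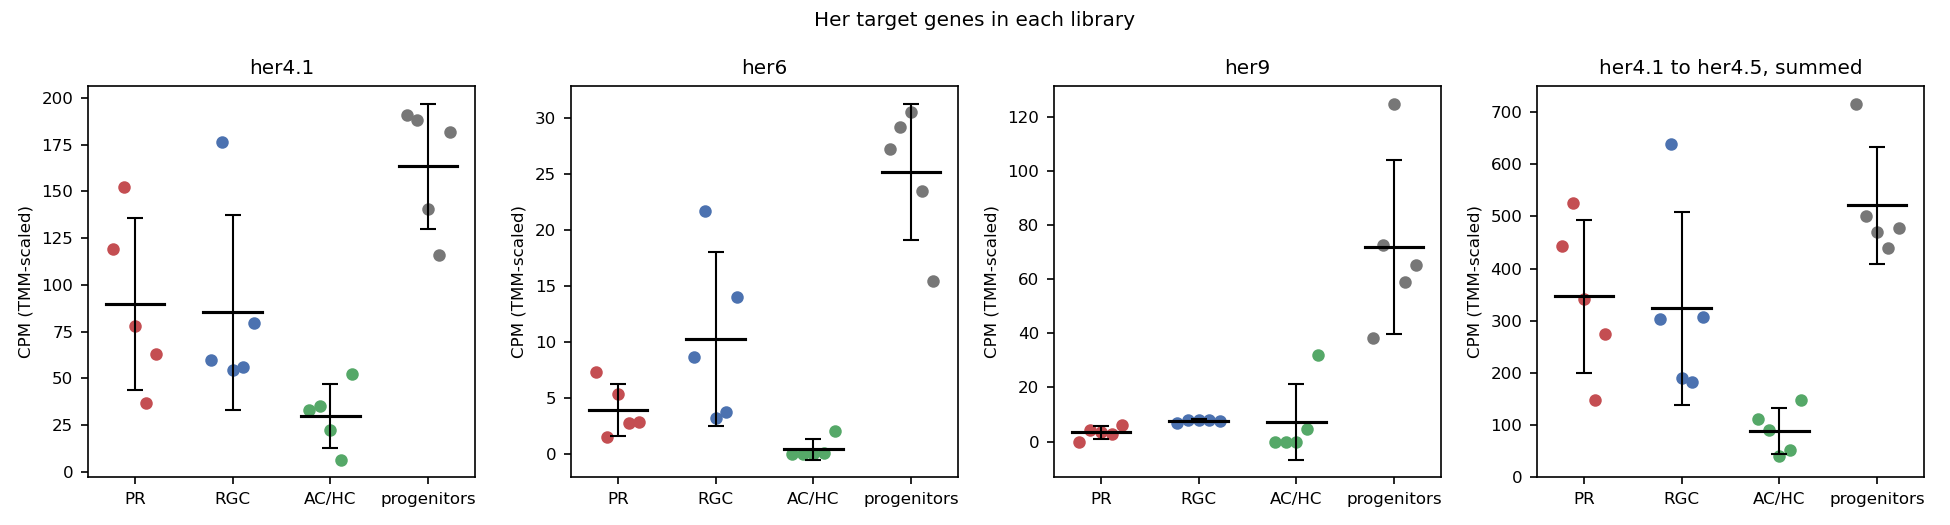
Level of her4.1, her6, her9 and the sum of her4.1 to her4.5 in CPM (y axis) in each library (points) of the 4 sorted groups (x axis), with the group mean as a bar and 1 SD as whiskers (n = 5). AC/HC libraries lie below all progenitor libraries for her4.1, her6 and the sum, and progenitors stand above all neuron libraries for her9.

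Among the neuron groups, photoreceptors were lower than RGC for 3 (notch1a, dlb and dlc), beside 2.11% of all genes called in either direction and 1.27% lower. Against AC/HC, photoreceptors were lower for 2 (dlb and dlc) and higher for 1 (her4.1), beside 8.71% in either direction, 3.94% lower and 4.77% higher. RGC were higher than AC/HC for 1, dlb, beside 0.824% in either direction and 0.6% higher. With AC/HC replicate 5 left out the last count was 2, as her6 joined dlb. All photoreceptor libraries lay below all RGC libraries for 4 genes (notch1a, dlb, dlc and her9), beside 3.82% of all genes, and all RGC libraries lay above all AC/HC libraries for 3 (dlb, her4.1 and her6), beside 2.47%.

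Correlations of the members' log2 levels over the 20 libraries, given as a description since the libraries share groups and depth, were highest for her4.1 with her6 (Pearson r = 0.817) and lowest for notch3 with dlc (0.0966). Notch1a ran closest to dlc among the members (0.776), dlb to dlc (0.757) and notch2 to her9 (0.721). Of 6933 genes compared, the nearest in pattern was TLE3 (ENSDARG00000069006, the tle3b copy of a Groucho corepressor gene) for notch1a (r = 0.872), tnn, a tenascin gene, for notch2 (0.885) and JAM3, a junctional adhesion gene, for notch3 (0.862). It was IGF2BP3 for dla (0.913), RRS1 for dlb (0.925), NAA40 for dlc (0.911), ctnnd2b for dld (0.889), her4.4 for her4.1 (0.926), ID1 for her6 (0.910) and WFDC1 for her9 (0.926).

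Of 77 other pathway genes listed, 68 were found in the table and 57 passed the filter. In photoreceptors against progenitors, 7 of the 57 fell and 1 rose, in RGC 4 rose, and in AC/HC 12 fell and 4 rose. Over all genes, 2.05% fell and 3.14% rose in photoreceptors, 1.99% rose in RGC, and 5.51% fell and 5.61% rose in AC/HC. These 3 comparisons share the progenitor libraries. The 12 that fell in AC/HC include the related copies her4.2 to her4.5, and the 4 that rose include ptf1a, whose reporter set that gate.

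The other her, hes and hey genes made up 7 of these 12 lower calls in AC/HC, with 13 tested and a median log2 fold change of -2.08, against a median of 0 over all genes. Besides the 4 her4 copies these were her2, her15.1 and her15.2. The her4 copies run together and may share reads, so the 7 calls are not independent of each other. Her15.2, a further HES5 relative, had 52.4 ± 12.4 CPM in AC/HC and 136 ± 21.0 CPM in progenitors (-1.38, SE 0.33, adjusted p = 0.00974, edgeR), and it was lower in photoreceptors too, at 54.7 ± 25.3 CPM (-1.31, SE 0.33, adjusted p = 0.0195). Her2 had at most 1 count in any AC/HC library against 9.38 CPM on average in progenitors, at least 72.4-fold lower in AC/HC when each of its libraries is set to 3 counts (adjusted p = 0.00755). Without progenitor replicate 4, at 25.8 CPM the highest, the bound is 40.8-fold. Her15.1, named after its values were seen, had 32.8 CPM in AC/HC and 69.6 CPM in progenitors (-1.08, adjusted p = 0.0442).

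In photoreceptors against progenitors, 2 of these 13 genes were lower, her15.2 and hes6. Hes6, whose mouse ortholog promotes neurogenesis and opposes Hes1, had 433 ± 98.9 CPM in photoreceptors, 1155 ± 206 CPM in RGC, 728 ± 76.6 CPM in AC/HC and 867 ± 94.9 CPM in progenitors (SD, n = 5 each). Photoreceptors were lower than progenitors (-1.0, SE 0.16, adjusted p = 0.000598, edgeR), RGC (-1.41, adjusted p = 3.23e-05) and AC/HC (-0.75, adjusted p = 0.00614).

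Of 13 ligand and receptor processing genes, 1 passed in photoreceptors and 2 in AC/HC against progenitors, beside 5.19% and 11.1% of all genes in either direction, so these counts are near the background. In photoreceptors against progenitors the 1 call was mib1, a ubiquitin ligase needed for Delta endocytosis, at 73.8 against 160 CPM (-1.11, SE 0.32, adjusted p = 0.0449, edgeR). In AC/HC against progenitors lfng, a glycosyltransferase that modifies Notch, was lower at 188 against 401 CPM (-1.09, adjusted p = 0.0360), and psenen, a subunit of the gamma-secretase that cuts Notch, was higher at 77.4 against 35.0 CPM (1.15, adjusted p = 0.0212). Among the 3 other ligand genes tested, jag1b was lower in AC/HC (0.125 against 3.12 CPM, adjusted p = 0.0495). These 4 genes were named after their values were seen, because the counts were small.

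Of 18 nuclear and modulator genes, 1 was lower in photoreceptors and 2 in AC/HC than in progenitors, again near the 5.19% and 11.1% of all genes called in either direction. Tle3b, a Groucho corepressor gene, had 19.9 ± 4.46 CPM in photoreceptors and 87.5 ± 19.6 CPM in progenitors (-2.14, SE 0.38, adjusted p = 0.00142, edgeR), with no overlap. Dtx4a, a Deltex ubiquitin ligase gene, had 33.0 ± 13.6 CPM in AC/HC and 120 ± 24.8 CPM in progenitors (-1.87, SE 0.40, adjusted p = 0.00443). Nrarpa, a feedback inhibitor of Notch named after its values were seen, had 47.4 CPM in AC/HC and 133 CPM in progenitors (-1.48, adjusted p = 0.0363).

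Of 10 proneural and neurogenic factors tested, 1 was higher and 3 were lower in photoreceptors than in progenitors, beside 3.14% and 2.05% of all genes. In RGC 4 were higher, beside 1.99%, and in AC/HC 3 were higher and 1 was lower, beside 5.61% and 5.51%. The list holds atoh7 (ath5) and ptf1a, whose reporters set the gates. Ptf1a was 1 of the 3 higher in AC/HC, a gate that required its reporter, so that call is not independent of the sort. The median log2 fold change of the 10 was -0.88 in photoreceptors, 0.91 in RGC and 0.76 in AC/HC. Neurod1, a bHLH factor that is also a photoreceptor marker here, was higher than in progenitors in all 3 groups, at 2008 ± 373 CPM in photoreceptors, 650 ± 137 CPM in RGC and 505 ± 101 CPM in AC/HC, against 180 ± 19.9 CPM in progenitors (log2 fold changes 3.48, 1.86 and 1.49, adjusted p = 4.32e-10, 3.39e-06 and 1.17e-05, edgeR). In RGC the other 3 calls were neurod4 (0.90, adjusted p = 0.00365), insm1a (0.93, adjusted p = 0.0136) and ptf1a (3.30, adjusted p = 0.0364). Ptf1a stood at 183 ± 55.9 CPM in RGC, a gate without the ptf1a reporter, and at 18.6 ± 15 CPM in progenitors. In AC/HC, the gate with that reporter, it stood at 200 ± 115 CPM. Foxn4, which acts upstream of amacrine and horizontal fates in mouse, was lower in photoreceptors (190 ± 34.5 CPM) than in progenitors (520 ± 90.6 CPM; -1.45, SE 0.17, adjusted p = 1.15e-05). Ascl1a, a proneural bHLH gene, was lower in photoreceptors (-1.07, adjusted p = 0.0307) and in AC/HC (-1.14, adjusted p = 0.0139) than in progenitors.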

How the data were processed

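The authors deposited whole-number read counts per gene for 20 libraries (SmartSeq-2, NextSeq500, per the labels' protocols). Per the file headers, featureCounts 1.6.3 counted reads over exons without regard to strand and dropped multi-mapping reads, so overlapping genes and near-identical copies may be counted low. GSNAP and bcl2fastq 2.19.1 come from the submitters' processing notes, which name GRCz11 and an earlier build. Coordinates and the summed exon length per gene are the deposited ones. All 20 columns matched a label.

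Spike-ins were left out. Testing used edgeR (4.0.16, under R 4.3.3): filterByExpr by group (13838 genes kept), TMM factors, glmQLFit and glmQLFTest on all 20 libraries with 1 mean per group, 2-sided, Benjamini-Hochberg over all genes, threshold 0.05. An SE is the log2 fold change over the root of its F. The code was checked on simulated counts. DESeq2 1.42.0, limma 3.58.1 voom, other scalings and filters, a replicate block, the library number range as a term, the compared groups alone and 20 leave-one-out fits were the 29 alternatives. Correlations and the differences within library number ranges used log2(CPM + 1).

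The genes and lists were chosen with earlier results of these data known. All members are named. Of the listed pathway genes called against progenitors (22), the 15 with the smallest adjusted p are named by rule. Symbols came from a gene name table, and RefSeq served for names and chromosomes only. No sequence is shown, because none was used here.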

Additional observations from a re-analysis of the deposited data

Results flagged for a closer look

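Of 40 sets of 5 libraries (10 genes in 4 groups), 4 held a library whose gap to the nearest of the others passed Dixon's 95% limit. That limit flags about 1 in 20 sets of normally distributed values. Sets with several libraries at 0, as for her6 and her9 in AC/HC, are not of that kind, so the flags are a description. RGC replicate 1 had 108 CPM of notch1a, below the 140 to 149 CPM of the other RGC libraries. RGC replicate 2 had 177 CPM of her4.1, above the 54.4 to 79.7 CPM of the others. AC/HC replicate 5 stood out for both her6, at 2.09 CPM against 0 to 0.0863 CPM in the other AC/HC libraries, and her9, at 32.1 CPM against 0 to 4.49 CPM.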

How the results depend on the processing

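Of the 17 called results, 11 stayed called in the same direction under all 29 alternatives, and 16 had the same sign in both ranges of library numbers. The exception was notch1a in AC/HC against progenitors, where the lower range held 1 AC/HC library, replicate 1. The number of members called in photoreceptors against progenitors was 3, and 6 with DESeq2, 8 with limma voom and 6 with the compared groups alone. Over all genes, 718, 1376, 1295 and 992 were called there, in the same order. In RGC against progenitors 1 member was called, with 2 by voom and 5 with the compared groups alone. All-gene calls were 398, 755 and 691. In AC/HC against progenitors 6 members were called, with 10 by voom and 3 with the compared groups alone. All-gene calls were 1540, 2316 and 600. In photoreceptors against AC/HC 3 members were called, with 5 by DESeq2 and 1 with the compared groups alone. All-gene calls were 1205, 2085 and 553. In RGC against AC/HC 1 member was called, with 3 by DESeq2 and 2 each by voom and the replicate block. All-gene calls were 114, 696, 434 and 89. Leave-one-out member counts ran from 3 to 4, 1 to 1 and 4 to 7 for photoreceptors, RGC and AC/HC against progenitors. They ran from 2 to 4, 2 to 4 and 1 to 2 for photoreceptors against RGC, photoreceptors against AC/HC and RGC against AC/HC. All-gene calls of the leave-one-out fits are not given here. The cause was not tested.

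No called result changed sign. Uncalled values did: notch3 in photoreceptors against RGC (-0.01) was 0.051 with RLE factors and with DESeq2, 0.0056 with a minimum count of 50 and 0.023 with the library number range as a term, and dld there (0.14) was -0.11 with voom. In photoreceptors against AC/HC, dla was 0.75 with voom and 0.11 with the replicate block, and her9 was 2.47 with voom and 0.21 with the block. In RGC against AC/HC, dlc was 0.087 with library totals alone and 0.037 with voom. Leaving out 1 library gave ranges across 0 for dlb in RGC against progenitors (-0.051 to 0.15), for notch3 (-0.20 to 0.10), dld (-0.16 to 0.34) and her4.1 (-0.20 to 0.53) in photoreceptors against RGC, for dla (-0.62 to 0.22) and her9 (-1.45 to 1.61) in photoreceptors against AC/HC, and for dlc (-0.31 to 0.13) and her9 (-0.25 to 2.80) in RGC against AC/HC.

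The labels do not say that same-numbered libraries came from the same pool, and the main fit did not use the numbers as pairs. Deviations from the group means correlated at -0.05 to 0.19 over 30 same-numbered pairs, 5 of them over 0.1. In 18 of the 30 pairs, and in all 5 of RGC against progenitors, the library correlated best with its own number among 5. The count column names also carry the same letter (A, B or none) in all 4 groups of a number. Neither states a shared pool, so the main fit leaves a possible pairing out and the replicate block includes it. With the replicate block dld in AC/HC against progenitors gave -1.81 (adjusted p = 0.0755) and notch3 there -1.23 (adjusted p = 0.0347), and her4.1 in RGC against AC/HC gave 1.58 (adjusted p = 0.0469). Low counts limit notch2 in RGC and AC/HC, and her6 in AC/HC.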
